A study of Homo sapiens with 30 samples.

Results

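Subtelomeric peaks are the H3K27me3 and H3K9me3 ChIP-seq peaks in the outermost stretch of the human chromosomes, next to the telomeres. They were chosen by position alone, as peaks that overlapped the 2 Mb next to either end of an autosome in hg19. The p arm ends of chromosomes 13, 14, 15, 21 and 22 were left out, since they are gaps in that build, which left 39 arm ends. Over the 5 peak lists, 12529 of 431864 peaks were subtelomeric. For H3K27me3 they were 1975 of 102921 in NC, 1898 of 86099 in ΔLINC00641 and 1978 of 98401 in ΔSETD5-AS1. For H3K9me3 they were 3501 of 84170 peaks in NC and 3177 of 60273 in ΔLINC00662.

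Human telomeres are long tandem arrays of the hexamer TTAGGG that protect chromosome ends. The adjoining subtelomeres hold blocks of sequence copied between chromosomes, followed inwards by gene-rich, GC-rich DNA. H3K27me3 is deposited by Polycomb repressive complex 2 and marks silent developmental genes. H3K9me3 is bound by HP1 proteins and marks constitutive heterochromatin, tandem repeats and the clustered KRAB zinc finger genes, many of which lie near chromosome ends. The D4Z4 arrays at the ends of 4q and 10q, each unit of which carries a DUX4 open reading frame, are a well-known example of repressed subtelomeric chromatin.

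HEK293T cells, a line derived from human embryonic kidney and expressing SV40 large T antigen, were transfected with antisense oligonucleotides (ASOs) that deplete a long noncoding RNA, and were collected after 48 h. H3K27me3 was profiled with a negative control ASO (NC), with 1 ASO to LINC00641 (ΔLINC00641) and with 1 ASO to SETD5-AS1 (ΔSETD5-AS1), and H3K9me3 with NC and with a mix of ASOs to LINC00662 (ΔLINC00662). All groups carried an ASO, so no untransfected cells were included, and the H3K27me3 NC list served both H3K27me3 comparisons. Each list was called on 3 merged replicates against merged input, so no value has an error between replicates and no test was made. The genome-wide fragment level was 3.50 to 4.43 per base and the median summit held 18 to 22 fragments, so single weak peaks are imprecise. Intervals below are 95% Wilson or Newcombe intervals over peaks or genes. They treat each peak or gene as an independent draw, so they hold the error of counting and nothing else.

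The windows held 75.2 Mb of sequence, 2.80% of that of the autosomes. Their GC content had a median of 49.5% over arms and ranged from 36.8 to 57.5%. Sequence matching another subtelomeric window over at least 1 kb at 90% identity or more made up 5.43% of the windows, from 0.612 to 31.8% by arm. A mapping quality filter was not stated for the aligned reads, so in such sequence the arm from which a read came cannot be told apart.

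The reference sequence under 4 subtelomeric summits is given as an example. These peaks were picked for their strength or their change, so they do not show what kind of DNA carried the other peaks. Each stretch is 150 bases of the hg19 plus strand, centred on a summit and written 5′ to 3′. They are shown as the strongest H3K27me3 and H3K9me3 NC peaks, the H3K27me3 peak at EXD3 that was absent in ΔSETD5-AS1, and the 16p peak that was strongest in both H3K27me3 knockdowns. Their capitals mark the dinucleotide CG.
7p, ADAP1 promoter, H3K27me3 NC, chr7:945251-945400: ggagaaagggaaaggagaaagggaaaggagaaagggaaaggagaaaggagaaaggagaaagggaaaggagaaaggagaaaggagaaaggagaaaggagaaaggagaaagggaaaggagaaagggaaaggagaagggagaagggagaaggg
18p, ROCK1P1, H3K9me3 NC, chr18:108077-108226: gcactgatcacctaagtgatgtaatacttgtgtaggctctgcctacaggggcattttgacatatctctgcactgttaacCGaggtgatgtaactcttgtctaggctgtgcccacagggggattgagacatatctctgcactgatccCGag
9q, EXD3 intron, H3K27me3 NC, chr9:140222729-140222878: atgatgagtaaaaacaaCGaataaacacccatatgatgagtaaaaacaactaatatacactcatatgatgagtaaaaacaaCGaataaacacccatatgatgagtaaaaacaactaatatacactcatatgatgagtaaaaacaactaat
16p, intergenic, H3K27me3 NC, chr16:1075322-1075471: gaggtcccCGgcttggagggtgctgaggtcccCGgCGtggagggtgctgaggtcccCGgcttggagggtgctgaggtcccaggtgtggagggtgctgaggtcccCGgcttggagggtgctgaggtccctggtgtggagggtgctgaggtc
They held 0, 2, 2 and 5 CG per 150 bases, beside a mean of 3.23 in the windows and 1.49 over the autosomes. The 7p stretch is a purine repeat built on ggagaaa and gggaaa, and the 18p, 9q and 16p stretches are imperfect tandem repeats of longer units.

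The question answered first is whether either mark was concentrated at chromosome ends. H3K9me3 peaks were denser within 2 Mb of the ends than in the rest of the autosomes, while for H3K27me3 the answer depended on the width of the window. In NC, H3K9me3 reached 46.6 peaks per Mb of window sequence and 27.6 per Mb in the rest of the autosomes, a ratio of 1.69. In ΔLINC00662 the values were 42.3 and 19.7, a ratio of 2.15. H3K27me3 gave 26.3 and 27.5 per Mb in NC, a ratio of 0.956, with 25.2 and 21.8 (1.16) in ΔLINC00641 and 26.3 and 25.6 (1.03) in ΔSETD5-AS1. The H3K27me3 NC ratio was 0.679 in a window of 1 Mb, 1.82 in a window of 5 Mb and 1.18 for peaks of −log10 q 5 or more, where the H3K9me3 NC ratio was 2.06, 1.54 and 2.08.

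The covered share of sequence followed the same order. H3K9me3 peaks in NC covered 3.69% of the windows and 1.77% of the rest. In ΔLINC00662 they covered 2.80% and 1.05%. H3K27me3 peaks in NC covered 2.23% and 2.08%. Enrichment of single peaks was alike inside and outside the windows, with a median fold over input of 3.274 against 3.297 for H3K27me3 NC and 3.09 against 3.21 for H3K9me3 NC. The local input was higher in the windows for both marks, at a median of 1.36 against 1.07 times the genome-wide level for H3K27me3 NC and 1.76 against 1.32 times for H3K9me3 NC. The part of input level in peak number was not tested.

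Arms differed far more from each other than the windows did from the rest. H3K27me3 in NC ranged from 0.503 to 168 peaks per Mb over the 39 arms, with a median of 11.6 and an SD of 38.9. H3K9me3 ranged from 2.58 to 252 per Mb, with a median of 31.7 and an SD of 47.5. For H3K27me3, 12 of 39 arms (30.8%) were denser than the rest of their own chromosome, beside 22% of 1350 consecutive autosomal stretches of 2 Mb. For H3K9me3 it was 25 of 39 arms (64.1%), beside 38.6% of the stretches, and in ΔLINC00662 28 of 39 arms.

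**Figure D1:**
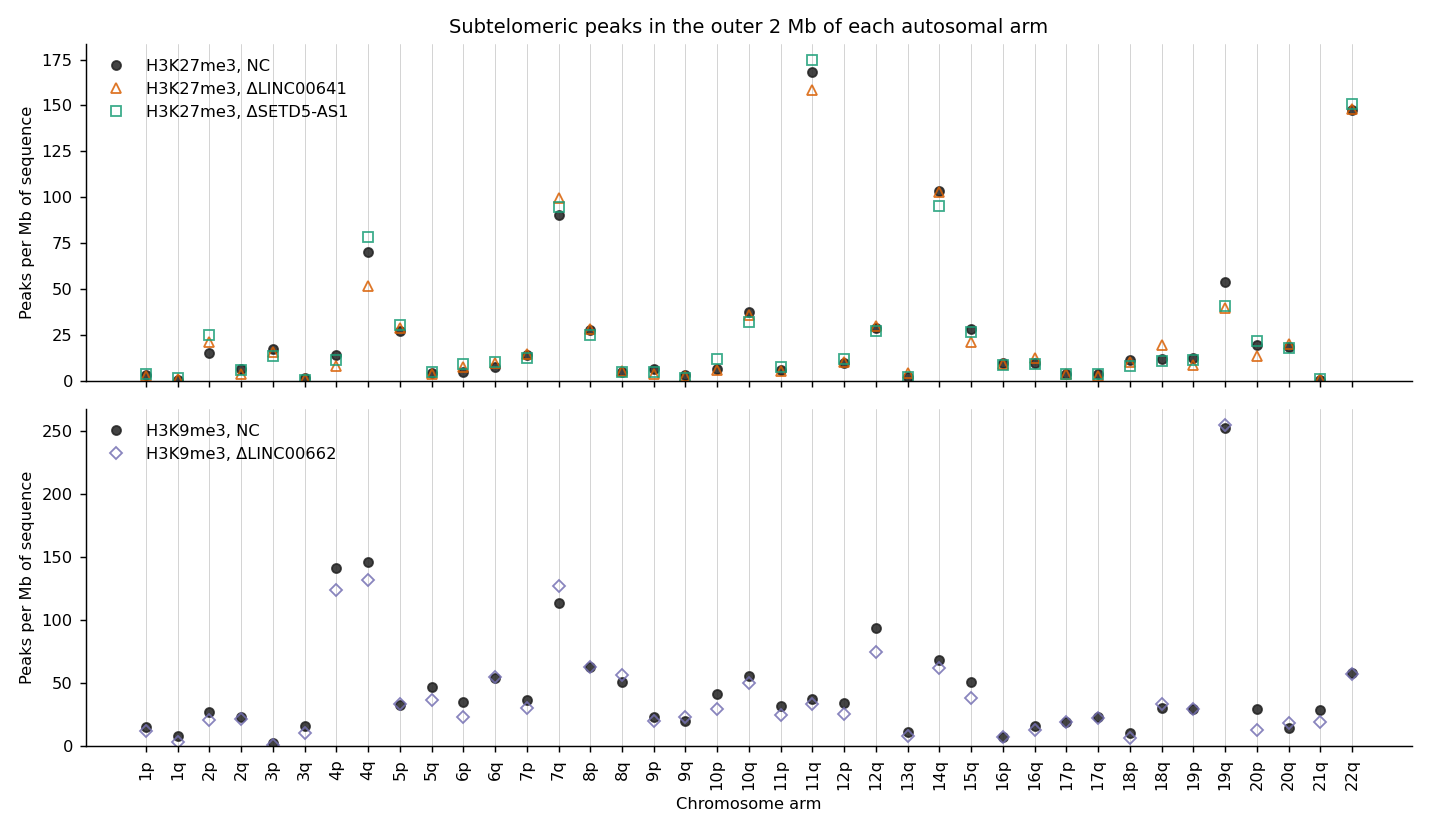
Peaks per Mb of sequence (vertical axes) in the outer 2 Mb of each of the 39 arms (horizontal axis), for H3K27me3 in NC, ΔLINC00641 and ΔSETD5-AS1 (upper panel) and for H3K9me3 in NC and ΔLINC00662 (lower panel), 1 point per pooled list. A few arms stand far above the others, 11q and 22q for H3K27me3 and 19q, 4q and 4p for H3K9me3, and the knockdown points lie near the NC point of the same arm.

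A handful of arms held most of the H3K27me3 peaks. The arm with the most was 11q, where NC had 326, ΔLINC00641 307 and ΔSETD5-AS1 339. It was followed by 22q with 279, 280 and 285 peaks, and by 14q with 201, 200 and 185. These 3 arms, with 7q and 4q, held 1119 of the NC peaks (56.7%), and the other arms together reached 13.1 per Mb. At the low end, 21q and 1q held 1 peak each in NC and 3q held 3. In the H3K27me3 knockdowns these arms held between 1 and 3.

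The next arms by NC number were 19q, where NC had 107, ΔLINC00641 79 and ΔSETD5-AS1 82, then 10q with 73, 70 and 63. On 15q the NC list held 57 peaks and the knockdowns 43 and 53, on 8p 56, 57 and 50, on 12q 55, 57 and 52, and on 5p 54, 58 and 61. Of the 57 NC peaks of 15q, 48 lay in the outermost 250 kb. Between 20 and 40 NC peaks were found on 20p, 20q, 3p, 2p, 7p, 4p, 19p, 18q and 18p, and fewer than 20 on the remaining arms. In the order NC, ΔLINC00641, ΔSETD5-AS1, 2p held 31, 43 and 50, and 18q held 24, 38 and 21. 3p, the GC-poorest window at 36.8% GC, held 34, 31 and 27.

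On 11q, 7q and 14q, many of the H3K27me3 peaks lay in a single gene or locus, which was less so on 22q and 4q. On 11q, 167 NC peaks lay in the part of OPCML inside the window, beside 137 in ΔLINC00641 and 155 in ΔSETD5-AS1. OPCML encodes a GPI-anchored neural cell adhesion protein. On 7q, PTPRN2, which encodes a receptor-type tyrosine phosphatase of dense-core vesicles, held 156, 179 and 167 peaks. On 22q the lncRNA gene MIR3667HG held 78 of 279 NC peaks, 78 in ΔLINC00641 and 74 in ΔSETD5-AS1, and on 4q the lncRNA gene FRG1-DT held 28 of 133, then 20 and 30.

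The immunoglobulin heavy chain locus accounted for nearly all H3K27me3 peaks of 14q. Between chr14:106053226-107288019, over 174 annotated IGH genes, lay 197 of 201 NC peaks of that arm (98.0%), 195 in ΔLINC00641 and 181 in ΔSETD5-AS1. The same span held 115 of 133 H3K9me3 NC peaks of 14q (86.5%) and 105 peaks in ΔLINC00662. This locus encodes antibody heavy chains and is used in B cells, not in kidney cells.

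H3K9me3 was led by other arms. In NC, 19q held 502 peaks (252 per Mb, 26.4% of its sequence), 4q 276 and 4p 273, and in ΔLINC00662 they held 506, 249 and 240. These 3 arms, with 7q and 12q, held 1454 of the NC peaks (41.5%), and the other arms together reached 31.3 per Mb. The fewest NC peaks were on 3p with 5, 16p with 15 and 1q with 15, with 3, 15 and 6 in ΔLINC00662.

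Most arms had an intermediate number of H3K9me3 peaks. On 14q the lists held 133 in NC and 120 in ΔLINC00662, on 8p 125 and 125, on 22q 110 and 109, on 10q 108 and 97, on 6q 103 and 104, and on 15q 101 and 77. Between 50 and 100 NC peaks were found on 5q, 8q, 10p, 11q, 7p, 6p, 5p, 12p, 11p, 18q, 19p, 20p, 21q and 2p. The largest relative drop among arms with at least 20 NC peaks was on 20p, from 57 to 25, and the largest relative gain on 20q, from 27 to 34. The leading H3K27me3 arm, 11q, was ordinary for H3K9me3, with 73 and 65 peaks. Over the 39 arms, the NC densities of the marks had a Spearman correlation of 0.60 and a Pearson correlation of 0.36, a description over arms that share the cells and the base composition of each window.

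Most H3K9me3 peaks of 19q, 4p and 12q lay in spans of zinc finger genes. Genes of this family mostly encode DNA-binding proteins that recruit silencing factors, many of them to retrotransposons. On 19q, chr19:57173348-58992597 spans 46 such genes and takes up 1.82 Mb of the 2 Mb window. It held 484 of 502 NC peaks (96.4%) and 491 in ΔLINC00662. As it fills most of the window, this share does not tie the peaks to the genes. On 4p, chr4:53180-492945 spans 5 over 0.44 Mb and held 191 of 273 peaks (69.96%), with 159 in ΔLINC00662. On 12q, chr12:133494892-133791418 spans 7 over 0.297 Mb and held 115 of 177 peaks (65.0%), with 79 in ΔLINC00662. H3K27me3 in NC had 105 of its 107 peaks of 19q in the 19q span (98.1%), 1 in the 4p span and none in the 12q span.

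Single zinc finger genes showed the same pattern. ZNF721 on 4p held 34 H3K9me3 peaks in NC and 32 in ΔLINC00662, ZNF718 held 31 and 20, and ZNF141 held 23 and 18. CHFR, a mitotic checkpoint ubiquitin ligase gene next to the 12q cluster, held 30 and 25. By number alone, which does not allow for gene length, PTPRN2 led with 165 H3K9me3 peaks in NC and 193 in ΔLINC00662. It was at the same time among the leading H3K27me3 genes by number. H3K9me3 NC peaks covered 12.3% of PTPRN2, beside 65.9% of ZNF721. DLGAP2, a postsynaptic scaffold gene, held 79 and 83 H3K9me3 peaks and 48, 50 and 47 H3K27me3 peaks. H3K9me3 NC peaks covered 5.35% of it.

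**Figure D2:**
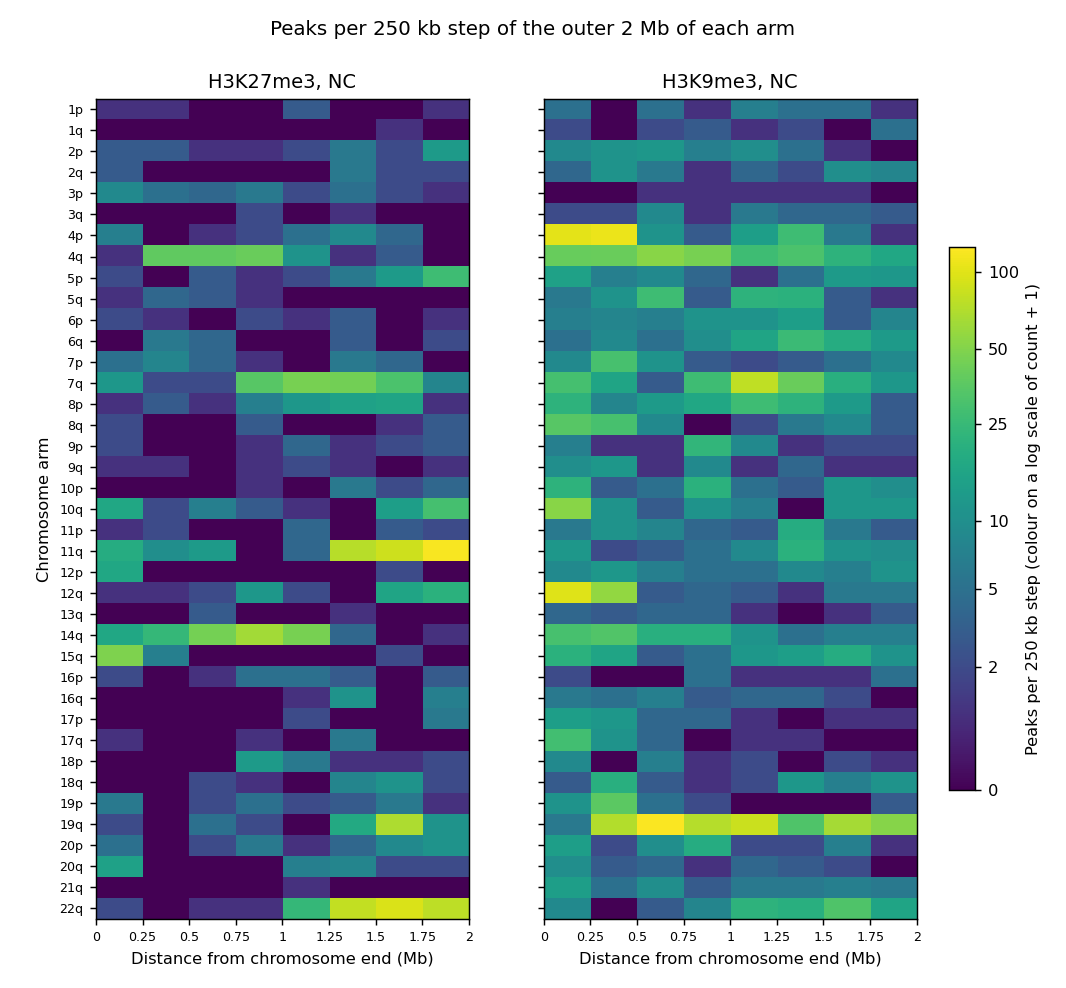
Number of NC peaks (colour, log scale of count + 1) per 250 kb step from the chromosome end (horizontal axis) on each of the 39 arms (vertical axis), for H3K27me3 (left) and H3K9me3 (right). H3K27me3 blocks lie at 1.25 to 2 Mb on 11q and 22q and at 0.25 to 1.25 Mb on 14q, while H3K9me3 blocks start at the end on 4p and 12q and fill most of 19q.

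Position within the 2 Mb differed between the marks. H3K9me3 was highest next to the end, at 74.8 peaks per Mb in the outer 0.5 Mb in NC, then 41.0, 41.5 and 31.6 in the next 3 steps of 0.5 Mb. ΔLINC00662 gave 65.6, 36.8, 37.7 and 31.1. Outside the windows, H3K9me3 NC was higher again, at 45.8 between 2 and 2.5 Mb and 49.1 between 2.5 and 3 Mb. Summed over arms, H3K27me3 in NC had 18.5, 18.9, 27.6 and 39.3 per Mb, and 68.3 between 2.5 and 3 Mb, outside the windows. Its median over arms was 6.82, 6, 12 and 8 in the windows and 8.57 between 2.5 and 3 Mb, so the higher sums came from a part of the arms. By arm, the outer 0.5 Mb was denser than the step from 1.5 to 2 Mb on 29 of 39 arms for H3K9me3 NC and less dense on 10. For H3K27me3 NC it was denser on 14, less dense on 22 and equal on 3.

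Within the windows, the excess of H3K9me3 at the end did not rest on the leading arms. Without the 5 leading arms of each mark, H3K9me3 NC gave 48.8, 26.6, 27.2 and 24.1 per Mb and H3K27me3 NC gave 12.96, 7.29, 11.7 and 20.2. Between 2 and 2.5 Mb and between 2.5 and 3 Mb, outside the windows, H3K9me3 NC without these arms gave 41.1 and 45.1. The median over all 39 arms was 40.8, 24, 20 and 22 for H3K9me3 NC in the windows, then 32 and 30. The outermost peak of an arm lay at a median of 3.34 kb from the end of the sequence for H3K9me3 NC and 65.8 kb for H3K27me3 NC. A peak was found within 10 kb of it on 24 of 39 arms for H3K9me3 NC, 19 for ΔLINC00662 and 6, 3 and 6 for the H3K27me3 lists.

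**Figure D3:**
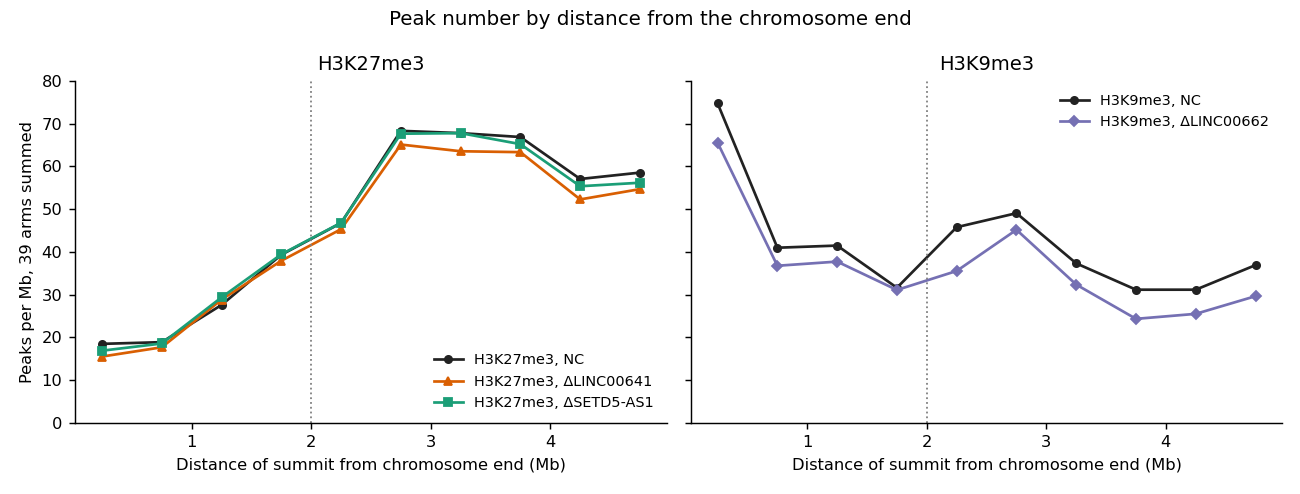
Peaks per Mb (vertical axis), summed over the 39 arms, by distance of the summit from the chromosome end in steps of 0.5 Mb (horizontal axis), for the H3K27me3 lists (left) and the H3K9me3 lists (right), with a dotted line at the 2 Mb limit of the windows. From the first to the last step within the windows, H3K9me3 in NC goes from 74.8 to 31.6 per Mb and H3K27me3 from 18.5 to 39.3.

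Base composition was set beside density in 5 GC groups of 100 kb tiles. The GC-richest group, 44.9 to 63.6% GC, held 68.4% of the subtelomeric tiles. There H3K9me3 NC had 39.01 peaks per Mb in the windows and 20.2 elsewhere, and H3K27me3 NC had 22.8 and 19.6. In the group below it, H3K9me3 had 68.2 against 33.9 and H3K27me3 40.1 against 37.3. In the middle group, H3K9me3 had 90.1 against 32.7 and H3K27me3 42.7 against 34.5. In the second poorest, H3K9me3 had 27.1 against 28.1 and H3K27me3 12.1 against 33.4. The GC-poorest group, with 18 subtelomeric tiles, had 5 against 22.5 for H3K9me3 and 8.89 against 12.1 for H3K27me3. Higher H3K9me3 density in the windows was thus seen in the 3 GC-richer groups and not in the others.

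At the very end, H3K9me3 peaks reached the telomere repeat itself on some arms. Of the 39 arms, 18 end in a tandem run of at least 4 TTAGGG copies, on either strand, in the last kb of hg19 sequence. Such a run was present in 0.0247% of all 300 bp stretches of the windows (62 of 250601) and in 0.000379% of those in the rest of the autosomes (33 of 8697992). An H3K9me3 NC peak touched that kb on 7 of these 18 arms and an ΔLINC00662 peak on 4, at folds of 2.31 to 3.68 and 2.13 to 3.53. No H3K27me3 peak of any of the 3 lists did. Of the 21 arms without such a run, the last kb held an H3K9me3 peak on none in either list and an H3K27me3 peak on 1, in ΔSETD5-AS1 only.

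The 7 arms in NC were 1p, 4q, 5p, 7q, 11q, 12q and 18p, and the 4 in ΔLINC00662 were 1p, 5p, 11q and 18p. Their local input ran from 1.43 to 14.7 times the genome-wide level in NC and from 2.28 to 26.1 times in ΔLINC00662. The medians over all subtelomeric H3K9me3 peaks were 1.76 and 1.87 times. The peaks in the last kb of 7q in NC and of 11q in both lists did not overlap the run there. Their input was 1.98 times on 7q, and 1.43 and 2.28 times on 11q. The peaks over a terminal run had 3.09 to 14.7 times in NC and 3.11 to 26.1 times in ΔLINC00662. All of these lay above the median of their list, and the part of input in their calling was not tested. Peaks holding a tandem run inside their bounds were 7 of 3501 (0.200%) in NC and 4 of 3177 (0.126%) in ΔLINC00662, and 0 in each H3K27me3 list. In NC, 5 of the 7 lay over a run at the very end, and the others over inner runs on 11p and 12p, 132 and 35.2 kb from the end of the sequence. The NC peaks at the ends of 1p and 12q had folds of 2.41 and 2.52. The 1p peak had a fold of 3.19 in ΔLINC00662, and the 12q peak had no counterpart there. All telomere repeats are alike, so the chromosome from which these reads came cannot be told apart.

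Peaks in sequence shared between arms were more frequent for H3K9me3. At least 50% shared sequence was found in 332 of 3501 H3K9me3 NC peaks (9.48%) and in 89 of 1975 H3K27me3 NC peaks (4.51%). Counted from the end of the hg19 chromosome, terminal gaps included, the nearest NC peak was of this kind for both marks. For H3K9me3 it was chr17:81186501-81186889 on 17q, at the start of the pseudogene RPL23AP87 and 8.32 kb from the end, with a fold of 4.01 and no counterpart in ΔLINC00662. For H3K27me3 it was chr5:180903649-180903973 on 5q, 11.3 kb from the end, with a fold of 3.01.

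Among the duplicated subtelomeric gene families, H3K9me3 lay mainly at DUX4 and DDX11L copies. Of 77 listed members, 30 had an H3K9me3 peak within 1 kb of a start site in NC, 32 in ΔLINC00662 and 28 in both, beside 6, 5 and 6 for the H3K27me3 lists. The H3K9me3 shares were 38.96% and 41.6%, beside 8.6% and 6.93% of all autosomal protein-coding genes. All 17 DUX4 copies, 10 on 4q and 7 on 10q, had one in both H3K9me3 lists and none had one in any H3K27me3 list. DUX4 encodes a homeobox factor of the early embryo that is otherwise kept silent. The strongest peak at the DUX4 gene itself, on 4q, had a fold of 6.20 in NC and 4.67 in ΔLINC00662. Of 8 DDX11L pseudogenes, 8 had an H3K9me3 peak in NC and 7 in ΔLINC00662. The other families had few in NC, at 2 of 5 FRG, 2 of 12 RPL23AP, 1 of 17 OR4F and none of 6 WASH, 5 FAM138 and 5 TUBB8 members. These copies are nearly identical, so a peak at one copy is not independent of a peak at another.

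Protein-coding genes in the windows numbered 1253 of 19229 on the autosomes. An H3K27me3 peak lay within 1 kb of a start site of 94 in NC (7.50%, beside 8.73% of all autosomal protein-coding genes), of 99 in ΔLINC00641 (7.90%, beside 9.19%) and of 93 in ΔSETD5-AS1 (7.42%, beside 8.42%). For H3K9me3 it was 135 in NC (10.8%, beside 8.6%) and 119 in ΔLINC00662 (9.50%, beside 6.93%). The H3K27me3 shares thus lay below that of all autosomal genes and the H3K9me3 shares above it.

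Zinc finger genes made up a large part of the subtelomeric genes with H3K9me3 at a start site. Of 79 listed in the windows, 48 (60.8%) had an H3K9me3 peak at a start site in NC and 44 in ΔLINC00662, and 42 had one in both. All 7 genes of 12q and all 5 of 4p were among them in both lists, with 31 and 26 of 46 on 19q. The 6 genes with a peak in NC only, all on 19q, were ZNF132, ZNF17, ZNF419, ZNF549, ZNF587 and ZNF749. The pair with a peak in ΔLINC00662 only was ZNF596 on 8p and ZNF835 on 19q. H3K27me3 was found at 1 zinc finger gene in NC (ZNF469), 3 in ΔLINC00641 and 2 in ΔSETD5-AS1.

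Some developmental regulators carried H3K27me3. Of 20 listed in the windows, 8 (40%) had a peak at a start site in NC, beside 8.73% of all autosomal protein-coding genes. The list was drawn up with earlier results of these data known. All 8 genes kept a peak in ΔLINC00641 and ΔSETD5-AS1, beside 84.7% and 79.9% of protein-coding genes in the rest of the autosomes. The 8 were the transcription factor genes DMRT1, FOXQ1, IRX4, MYT1, MYT1L, NKX6-2 and UNCX and the signalling gene WNT5B. UNCX, a paired-type homeobox gene of the somites and nervous system on 7p, had a highest fold in its body of 6.74 in NC, 4.52 when LINC00641 and 5.31 when SETD5-AS1 was depleted. The Notch ligand gene DLL1 had no peak at a start site in any list. H3K9me3 lay at 3 of the 20 in both lists, DMRT1, DMRT2 and DMRT3, neighbouring genes of the sexual development DMRT family on 9p.

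Neuronal receptor, channel and adhesion genes followed. Of 15 listed, 7 (46.7%, beside 8.73% of all autosomal protein-coding genes) had an H3K27me3 peak at a start site in NC. These were CHL1, CHRNA4, DLGAP2, GABRD, GRIN1, NTSR1 and PTPRN2. This list, too, was drawn up with earlier results of these data known. There were also 7 in ΔLINC00641 and 8 in ΔSETD5-AS1, where CNTN6 was added. H3K9me3 was found at DLGAP2 in NC, and at DLGAP2 and CHRNA4 in ΔLINC00662. CHL1, a neural adhesion gene near the end of 3p, had a highest H3K27me3 fold of 6.16, 5.80 and 6.99.

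The remaining lists had few peaks at start sites. Of the 5 alpha globin genes on 16p, HBA1 had an H3K27me3 peak in all 3 lists and HBA2 in ΔLINC00641, and none had H3K9me3. Of 55 olfactory receptor genes, 2, 3 and 4 had H3K27me3. For H3K9me3 it was OR2Y1 in NC and OR4F6 in ΔLINC00662. TERT, the catalytic subunit gene of telomerase on 5p, had no peak at a start site in any list. The imprinted genes H19, IGF2 and INS of 11p lay outside the windows.

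**Figure D4:**
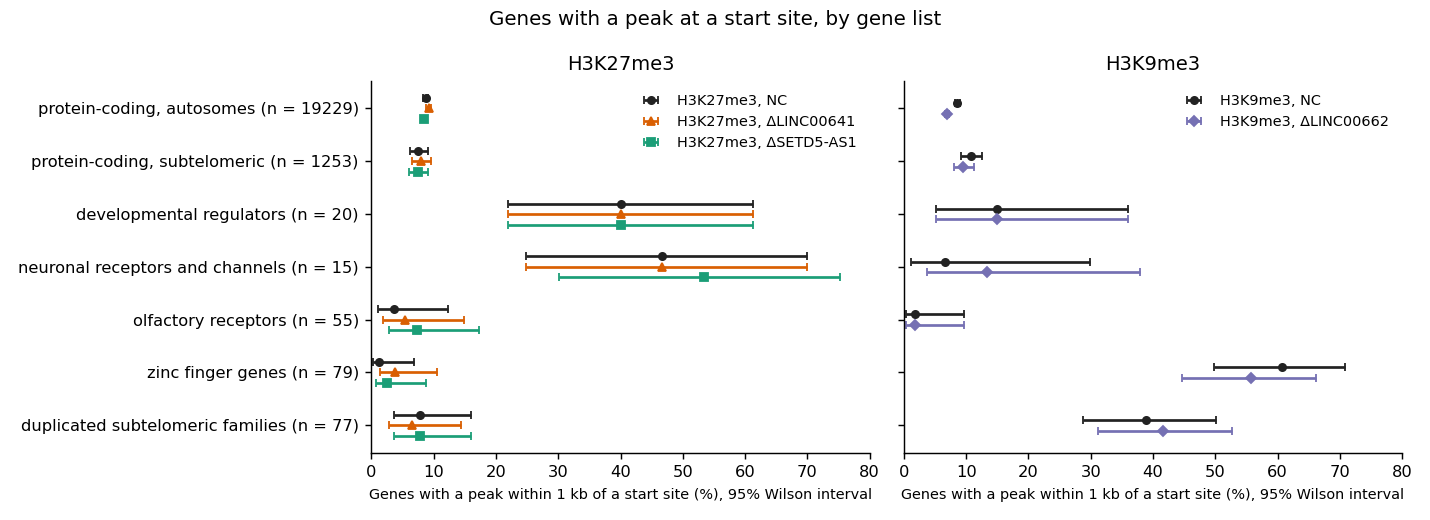
Share of genes with a peak within 1 kb of a start site (horizontal axes, percent, with 95% Wilson intervals) for all autosomal and all subtelomeric protein-coding genes and for 5 gene lists (vertical axis, number of genes in brackets), for the H3K27me3 lists (left) and the H3K9me3 lists (right). Zinc finger genes (60.8% in NC) stand above the other lists for H3K9me3, and developmental regulators, at 8 of 20, and neuronal genes, at 7 of 15 in NC, stand above them for H3K27me3.

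A larger share of H3K27me3 peaks overlapped H3K9me3 at chromosome ends than elsewhere, where H3K9me3 also covers less of the sequence. In NC, 350 of 1975 subtelomeric H3K27me3 peaks (17.7%, 95% interval 16.1 to 19.5) overlapped an H3K9me3 peak, beside 9.71% in the rest of the autosomes. From the H3K9me3 side, 349 of 3501 peaks (9.97%) did, beside 9.92%. Relative to the product of their covered shares, the shared sequence was 2.67 times in the windows and 3.20 times in the rest, so by this measure the overlap was lower at the ends. The marks shared 165 kb, of which 23.3 kb lay on 7q, 21.6 on 19q, 19.99 on 22q, 19.6 on 4q and 16.6 on 14q. As both are lists from a cell population, overlap does not show that a single nucleosome or cell carried both marks.

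Upon depletion of LINC00641, the total number of subtelomeric H3K27me3 peaks changed little, while it was lower in the rest of the autosomes. The number in ΔLINC00641 was 0.961 of that in NC, beside 0.794 in the rest. Of the 1975 NC peaks, 1262 (63.9%, 61.8 to 66.0) overlapped a ΔLINC00641 peak, beside 51.3% in the rest. The difference was 12.6 percentage points (10.4 to 14.7), but 1.43 points in a window of 1 Mb. The NC peaks lost were 713 (36.1%), beside 48.4% of all autosomal NC peaks, and 654 ΔLINC00641 peaks (34.5%) were new, beside 34.3%. Over 860 one-to-one pairs the median log2 ratio of fold to NC was 0.04, beside 0.00 in the rest.

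Base composition moved with this difference. Of the subtelomeric NC peaks 49.5% fell in the GC-richest of 5 groups, beside 15.6% of the rest, and retention was lowest in the GC-poorest group in both, at 29.8% and 31.0%. Within the 5 GC groups, from poor to rich, the difference was −1.19, 2.62, 2.88, 0.503 and 8.80 points, and only the interval of the last (5.84 to 11.6) left out 0. The peak number ratio to NC in these GC groups was 0.457, 0.781, 0.760, 1.02 and 1.13, beside 0.417, 0.694, 0.884, 1.02 and 1.18 in the rest. Peak number thus fell in the GC-poor groups and rose in the GC-richest in both. Within 5 strength groups, by −log10 q of the peak, the difference in retention lay between 6.36 and 15.9 points. Without 11q and 22q the difference was 6.94 points. By arm, 21 of 39 had fewer peaks than in NC, 17 more and 1 the same number. Over the 20 arms with at least 20 NC peaks, retention ran from 32.4% on 3p to 82.1% on 7p, and was above that of the rest of the same chromosome on 14. The dense arms differed, at 79.6% on 22q (74.5 to 83.9), 74.2% on 11q (69.2 to 78.7) and 73.3% on 7q (66.4 to 79.3), but 54.7% on 14q (47.8 to 61.5) and 42.9% on 4q (34.8 to 51.4).

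Upon depletion of SETD5-AS1, compared with the same NC list, the number of subtelomeric H3K27me3 peaks was 1.00 times that in NC, beside 0.933 in the rest. In 5 GC groups of peaks, from poor to rich, this ratio was 0.701, 1.02, 0.858, 1.04 and 1.08, beside 0.616, 0.889, 1.04, 1.12 and 1.12. Of the NC peaks 1208 (61.2%, 59.0 to 63.3) were retained, beside 54.8%, a difference of 6.38 points (4.18 to 8.54), which turned to −1.03 points in a window of 1 Mb. The 767 lost peaks were 38.8% of the NC peaks, beside 45.0% of all autosomal ones, and 720 peaks (36.4%) were new, beside 39.5%. The median log2 ratio of fold over 849 pairs was −0.06, beside −0.08.

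This difference, too, went with base composition. Within GC groups it was −0.670, 0.688, 0.929, −0.326 and 3.03 points, with an interval of −0.0448 to 5.98 in the last, so every interval included 0 at this number of peaks. Within the 5 strength groups it lay between 1.05 and 7.01 points. In groups 3 and 4 by rising strength, the subtelomeric intervals (45.6 to 55.2 and 58.3 to 68.3) held the share of the rest, 49.3% and 60.1%. Without 11q and 22q the difference was 2.44 points before GC was considered. By arm, 20 of 39 had fewer peaks, 16 more and 3 the same number. Retention ran from 23.5% on 3p to 79.4% on 20q over 20 arms, and was above that of the rest of the same chromosome on 12. It was 71.7% on 22q (66.1 to 76.6), 68.7% on 11q (63.5 to 73.5), 67.2% on 7q (60.1 to 73.7), 62.4% on 4q (53.9 to 70.2) and 52.7% on 14q (45.8 to 59.5).

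Upon depletion of LINC00662, subtelomeric H3K9me3 peaks were retained more often than other autosomal ones. Their number was 0.907 of that in NC, beside 0.714 in the rest, and 1898 of 3501 NC peaks (54.2%, 52.6 to 55.9) were retained, beside 37.2%. The difference was 17.03 points (15.3 to 18.7). The 1603 lost peaks were 45.8% of the NC peaks, beside 62.0% of all autosomal ones, and 1121 ΔLINC00662 peaks (35.3%) were new, beside 44.7%. Covered sequence was 0.757 of that in NC, beside 0.593. In 5 GC groups of peaks, from poor to rich, the number ratio was 0.335, 0.592, 0.898, 1.09 and 1.35 in the windows. In the rest it was 0.288, 0.520, 0.801, 1.075 and 1.30, so GC-poor peaks fell and GC-rich peaks rose in number in both. Over 1529 pairs the median log2 ratio of fold was 0.06, beside 0.02.

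Here the difference in retention was present in all 5 GC groups, at 9.34 (5.45 to 13.5), 16.7, 15.9, 15.8 and 9.83 (6.44 to 13.1) points. It was also present in all 5 strength groups, between 11.8 and 17.1 points. Without 19q it was 14.7 points. By arm, 27 of 39 had fewer peaks than in NC, 8 more and 4 the same number. Retention over the 36 arms with at least 20 NC peaks ran from 20% on 13q to 69.6% on 4p, and was above that of the rest of the same chromosome on 32. On 19q it was 68.3% (64.1 to 72.2) beside 54.1% in the rest of chromosome 19, on 7q 64.2% (57.7 to 70.1) beside 40.0%, on 12q 58.8% (51.4 to 65.7) beside 34.8% and on 4q 54.3% (48.5 to 60.1) beside 36.1%. The ΔLINC00662 list also had the lowest genome-wide fragment level, at 3.50 against 4.29 per base in NC, and its part in the lost peaks was not tested.

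**Figure D5:**
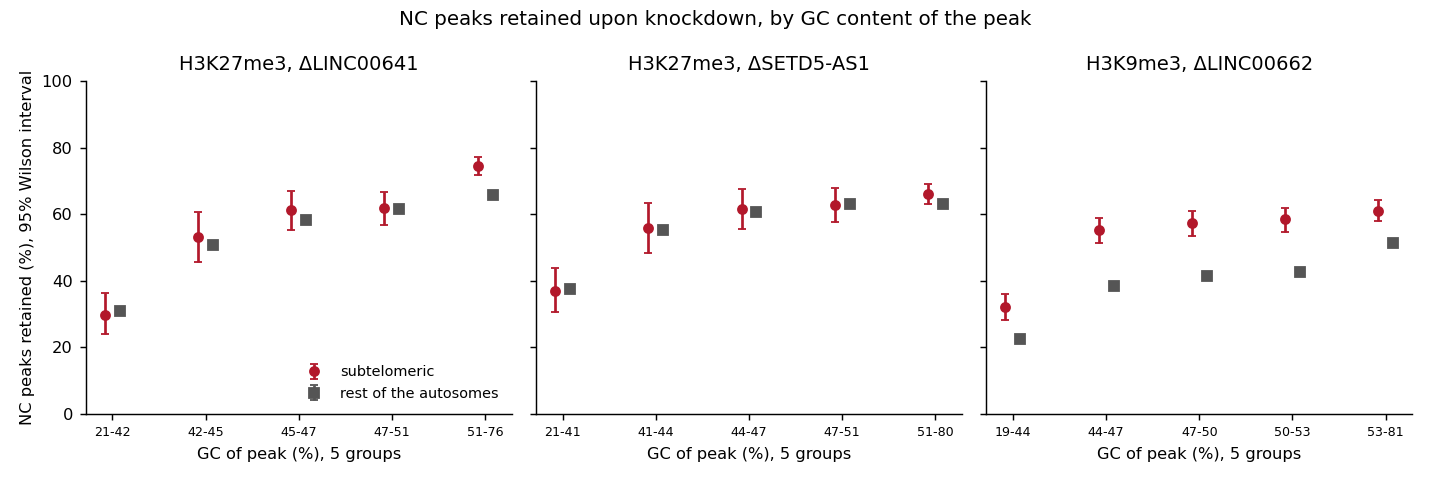
Share of NC peaks that overlapped a knockdown peak (vertical axis, percent, with 95% Wilson intervals over peaks) in 5 groups by GC content of the peak (horizontal axes, percent), for subtelomeric peaks (red circles) and the rest of the autosomes (grey squares) in the 3 comparisons. In ΔLINC00662 the subtelomeric points lie above the others in all 5 groups, while in ΔLINC00641 only the GC-richest group stands apart, by 8.80 points, and in ΔSETD5-AS1 the differences lie between −0.670 and 3.03 points.

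Peaks in sequence shared between arms were retained less often than the other subtelomeric peaks in all comparisons. In ΔLINC00641 it was 37 of 89 (41.6%) against 65.0%, in ΔSETD5-AS1 43 of 89 (48.3%) against 61.8%, and in ΔLINC00662 157 of 332 (47.3%) against 54.9%. Loci were also counted by merging the lists of a mark. H3K27me3 had 2812 subtelomeric loci, of which 844 (30.01%) were in all 3 lists, beside 24.1% in the rest. H3K9me3 had 4521, of which 1798 (39.8%) were in both lists, beside 27.6%.

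At genes, the mark at start sites was compared by whether a gene had any peak within 1 kb of a start site in both lists, which need not be the same peak. Of the 94 subtelomeric protein-coding genes with H3K27me3 at a start site in NC, 85 (90.4%) also had it in ΔLINC00641, beside 84.7% in the rest, and 79 (84.0%) in ΔSETD5-AS1, beside 79.9%. Of the 135 with H3K9me3, 102 (75.6%) also had it in ΔLINC00662, beside 55.9%. The gap to the rest of the autosomes was widest for H3K9me3. Both H3K27me3 gaps rest on 94 genes and no interval was computed, so they cannot be told from counting error.

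The strongest subtelomeric H3K27me3 peak in NC by −log10 q was chr7:944280-946214 at the promoter of ADAP1, an ARF GTPase-activating protein gene on 7p. It held 209 fragments at its summit over an input of 1.57 times the genome-wide level. Its fold was 29.8 in NC. The ΔLINC00641 and ΔSETD5-AS1 lists gave 12.2 and 12.1 at the same place. The fold was thus lower in both knockdowns, compared with the NC list that they share. In both knockdowns the strongest peak was instead an intergenic one on 16p, chr16:1075260-1075663 in ΔLINC00641 with a fold of 4.48 and chr16:1075267-1075665 in ΔSETD5-AS1 with a fold of 4.04, where the input was 28.3 and 29.5 times that level.

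The strongest H3K9me3 peak was the same in both lists, chr18:107859-109375 in NC and chr18:107863-109368 in ΔLINC00662, at the pseudogene-derived lncRNA gene ROCK1P1 near the end of 18p. It held 2807 and 3381 fragments at folds of 3.94 and 3.84. Its local input was 166 and 251 times the genome-wide level, among the highest of the named peaks. The widest NC peaks were chr19:1754941-1765339 at ONECUT3 for H3K27me3, 10399 bp wide, and chr19:58764850-58779816 at ZNF544 for H3K9me3, 14967 bp wide. ONECUT3, a neuronal homeobox gene on 19p, had folds of 6.98, 9.53 and 8.60 in NC, ΔLINC00641 and ΔSETD5-AS1. ZNF544 had 4.85 in NC and 3.18 in ΔLINC00662.

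Among the lost peaks, the strongest for ΔLINC00641 were chr4:190682774-190683558 near FRG1-DT on 4q, with a fold of 3.89 in NC, and chr13:114463527-114463874 in TMEM255B on 13q, with a fold of 4.51. A ΔLINC00641 peak lay 1422 and 562 bp away, so neither locus was empty. For ΔSETD5-AS1 both were on 9q, chr9:139943590-139944732 at the promoter of ENTPD2, an ectonucleotidase gene, with a fold of 2.88, and chr9:140222428-140222898 in EXD3, with 5.66. The nearest ΔSETD5-AS1 peaks were 116550 and 157472 bp away, and both loci had a peak in ΔLINC00641, with folds of 3.11 and 3.50.

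For ΔLINC00662 the strongest lost peaks were chr4:191043370-191044252 at the end of 4q, which holds a terminal telomere repeat and had a fold of 3.68, and chr7:157509497-157510135 in PTPRN2, with a fold of 4.26. The nearest ΔLINC00662 peaks were 1425 and 194 bp away. Of these 6 lost peaks, only the pair on 9q was far from any peak of the knockdown list.

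The strongest new peaks lay beside older ones. In ΔLINC00641 they were chr2:1865493-1865763 at a promoter of MYT1L, a neuronal zinc finger factor gene, with a fold of 5.06, and chr14:106100942-106101275 in the immunoglobulin locus, with 4.61. NC peaks lay 3856 and 298 bp away. In ΔSETD5-AS1 they were chr14:106780763-106781591 at IGHV4-28, with a fold of 4.95, and chr4:190767349-190768271 in FRG1-DT, with 2.04, which lay 1244 and 5386 bp from an NC peak.

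In ΔLINC00662 the strongest new peaks were chr4:190154990-190155269, an intergenic 4q peak with a fold of 2.93 and 308 times the genome-wide input, and chr15:102298212-102298495 in the pseudogene DNM1P47, with a fold of 2.61 and 17.1 times. NC peaks lay 865 and 331 bp away. High local input was frequent among these new peaks, at 7.57 times at MYT1L and 18.1 times in FRG1-DT, and its part in their calling was not tested.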

How the data were processed

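ChIP-seq of H3K27me3 and H3K9me3 in HEK293T cells gave 30 samples in 10 groups of 3 replicates, ChIP and input, grouped by their titles. According to the study's methods, Cutadapt 3.3 was used for trimming, Bowtie2 2.4.2 for alignment to hg19, GATK MarkDuplicates for duplicate removal and MACS2 2.2.7.1 in paired-end mode for peak calling on merged replicates. A mapping quality filter was not stated.

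The authors deposited 5 peak lists with the fold enrichment of each peak (a ratio to local input), its −log10 p-value and −log10 q-value, and a score derived from the q-value. Summit fragments and local input were solved from fold and −log10 p and came out whole, within 0.05, for 100% of peaks in each list.

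Peaks sharing at least 1 bp with the list compared were retained, and the others lost (from NC) or new (in the knockdown). Shared sequence was found with minimap2 2.31-r1302. Promoters lay within 1 kb of a start site in GENCODE 44 lifted to GRCh37, which has the main chromosome coordinates of hg19. The regions named were the 3 arms with the highest and lowest NC peak number per Mb, the strongest peak of each list, the widest and the outermost NC peak of each mark, the 2 strongest lost and new peaks of each comparison, peaks with 4 or more tandem telomere repeats, and the listed genes. OPCML, PTPRN2, MIR3667HG, FRG1-DT, the ZNF genes of 4p, CHFR and the IGH span were named as the features with many peaks on dense arms after their values were seen. The members and lists were chosen with earlier results of these data known. Alternatives were other windows, overlaps and filters. No test between groups was made and bigWig tracks were not used. The tools were samtools 1.23.1, pysam 0.24.0, Python 3.11.15, pandas 2.3.3, scipy 1.17.1 and numpy 2.4.6, and the functions were tested on simulated data. The sequences under some peaks are not reported here.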

Additional observations from a re-analysis of the deposited data

How the results depend on the processing

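No paired analysis was possible because each list pools its 3 replicates, and no replicate could be left out for the same reason. Of 124 values computed under alternatives, 76 moved by less than their counting error or tolerance. With a window of 1 Mb, the retained share was 53.1% in ΔLINC00641 and 53.9% in ΔSETD5-AS1, the new share was 37.9%, 40.7% and, in ΔLINC00662, 29.8%, and the difference from the rest was 1.43 points in ΔLINC00641 and turned to −1.03 in ΔSETD5-AS1. With a window of 5 Mb, the H3K27me3 density ratio was 1.82, the retained share 67.03%, 64.9% and 46.1% in ΔLINC00641, ΔSETD5-AS1 and ΔLINC00662, the new share 29.8%, 31.5% and 42.9%, and the difference 17.5, 11.3 and 9.12 points. For peaks of −log10 q 5 or more, the retained share was 57.5% in ΔSETD5-AS1 and 40.6% in ΔLINC00662, the new share 43.4%, 40.5% and 42.2%, and the difference 17.1, 11.9 and 13.2 points. With an overlap of at least 50%, the retained share was 49.4%, 43.7% and 36.6%, the new share 51.4%, 51.1% and 46.4%, and the ΔLINC00662 difference 11.8 points. With peaks within 1 kb merged, the new share was 38.8% in ΔSETD5-AS1 and the retained share 57.0% in ΔLINC00662. Without input-rich peaks, the ΔLINC00662 retained share was 52.4% and its new share 37.2%. Some alternatives were chosen after seeing the data. Without 11q and 22q, the retained share was 58.2% and 57.2%, the new share 38.6% and 39.7% and the difference 6.94 and 2.44 points in ΔLINC00641 and ΔSETD5-AS1. Without 19q, the ΔLINC00662 values were 51.9% retained, 37.5% new and 14.7 points. With the rest weighted to the subtelomeric GC content, the difference was 3.74, 1.28 and 13.04 points. Besides this turned difference, the H3K27me3 density ratio passed from below to above 1 with the 5 Mb window and, at 1.18, for the stronger peaks, as did the ΔLINC00641 peak number ratio, from 0.961 to 1.18, for the stronger peaks. The ΔSETD5-AS1 peak number ratio, 1.00 as reported, lay between 0.949 and 1.05. The cause of the shifts was not tested.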
